A study of Mus musculus with 18 samples.

Results

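Unsorted LCP cultures were compared 2 days into differentiation (D2) and at its start (D0), in 2 libraries of each day, which makes 4 of the 18 RNA sequencing libraries of the study. LCP is taken to mean Lgr5-positive cochlear progenitors, cells of the newborn mouse cochlea that are expanded as organoids, a reading that the labels do not spell out. The labels call the material primary cochlear organoids, mark these libraries as not sorted, and describe the study as one of supporting cell to hair cell conversion in which LCP samples were compared between time points. The 14 other libraries hold unsorted cultures at D4 and D10, sorted cultures at D0 and D10, and 3 native cell sorts at postnatal day 2.

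Both days share the mouse cochlear origin, the organoid format and the lack of a sort, and they differ by the days of differentiation. The sources used here do not give the mouse strain, the reporter allele, the pooling of animals or the agents of expansion and differentiation. A tamoxifen treatment of pups with a Sox2-CreER and beta-catenin exon 3 allele, described in the labels, matches no title of these libraries and was not used. The labels give replicate 1 of D2 and of D0 the same extraction and sequencing dates, and give replicate 2 another pair of dates shared by both days, so the libraries were compared as 2 pairs. Whether a pair comes from one culture is not stated, so p-values measure only the spread between samples. That spread was estimated from all 18 libraries of the study, not from these 4 alone.

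Levels are TPM, transcript abundances per gene length that sum to a fixed total in each library, so levels can be compared between genes but the read depth is unknown. Of the 47729 genes listed, 15394 reached 1 TPM in 2 or more of these 4 libraries and were tested. A gene under 1 TPM in both libraries of a day could enter only through the other day, so the filter fixed its direction. Hes5, Gfi1, Myo7a, Usp18, Notum and Igfbpl1 are among such genes named below. Differences are D2 minus D0 in log2(TPM + 1), a scale that understates the change of low genes. Values of a day are given for replicate 1 and then replicate 2. Groups are said not to overlap where both libraries of a day lie above, or both below, both libraries of the other. With 2 libraries against 2, random order alone gives this with a probability of 0.3333. Its share over all genes was not counted, so it is a description only.

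Cochlear hair cells are the mechanosensory cells that turn sound into electrical signals, and supporting cells surround them in the same epithelium. Notch signalling keeps these fates apart by lateral inhibition: ligands on one cell bind Notch receptors on its neighbour, gamma-secretase then frees the receptor's intracellular domain, and this domain joins the DNA-binding protein RBPJ to switch on repressors of the Hes and Hey families. In supporting cells these repressors hold down Atoh1, whose protein switches the hair cell program on. Expansion protocols published for Lgr5-positive cochlear cells are followed by differentiation media that often contain a gamma-secretase inhibitor, but the medium used here is not stated.

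Of the gene lists described here, Notch targets had the median difference farthest from 0, and all 6 members were lower at D2 in both pairs, as were 39.7% of all genes tested. The lists were chosen with earlier results of these data known. Counts over a list, here and below, are therefore a description and no independent support. Hes1, the repressor by which the stage of the cultures was checked, was at 40.1 and 18.9 TPM at D2, against 1982 and 689 TPM at D0. Both D2 libraries lay far below both D0 libraries, and the D0 level itself differed nearly 3 times between replicates. Hes1 fell at D2: the log2 difference was -5.36 (SE 0.68, adjusted p = 0.0232 by limma with the replicate number as a block), and Hes1 was among the 20 genes of 15394, 0.13%, that passed an adjusted p of 0.05, of which 14 genes (0.0909%) were lower. The call rested on every library: without any 1 of the 4 the adjusted p by limma was between 0.126 and 0.182. Without the block it was 0.231, and over all alternatives it ran from 0.00516 to 0.236, while the log2 difference stayed between -5.72 and -4.99.

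The other Notch targets did not pass the test, with the block or without it, and are given by their levels. All 6 targets, Hes1 included, had an unadjusted p under 0.05 by limma, as had 6.94% of all genes tested. This share stands beside each such count below. Hes5, a sister repressor of Hes1, was at 0.015 and 0.246 TPM at D2, against 153 and 21.8 TPM at D0. Heyl, a repressor of the Hey branch, was at 1.25 and 0.764 TPM at D2, against 268 and 35.6 TPM at D0. Hey1, of the same branch, was at 28.8 and 11.8 TPM at D2, against 721 and 95.5 TPM at D0. In each of these genes the groups did not overlap and replicate 1 had the higher D0 level. The log2 differences were -5.72 for Hes5 (adjusted p = 0.0902), -5.64 for Heyl (adjusted p = 0.0628) and -3.76 for Hey1 (adjusted p = 0.0681) by limma. Hey2, which keeps pillar cells in their fate, was at 11.7 and 13.4 TPM at D2, against 39.6 and 26.9 TPM at D0. Nrarp, a feedback inhibitor of the Notch complex, was at 5.31 and 10.5 TPM at D2, against 126 and 21.6 TPM at D0. These last genes were also lower in both pairs, by less in replicate 2. In bulk samples like these, fewer cells of a type and less RNA per cell cannot be told apart.

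A difference of at least 1 on the log2 scale in both pairs was used as a description of size, with no test. It held for 4 of the 6 Notch targets, all lower, against 395 of the 15394 genes (2.57%) lower by this measure and 223 (1.45%) higher. These shares stand beside each such count below. Taken pair by pair, 6 of 6 were at least 1 lower in replicate 1, against 6.74% of all genes tested, and 4 of 6 in replicate 2, against 5.85%. The median log2 difference of the Notch targets was -4.56, against -0.06 over all genes tested. The day 4 and day 10 libraries carried the low levels on: Hes1 was at 1982 and 689 TPM at D0, 40.1 and 18.9 at D2, 80.0 and 6.14 at D4 and 44.9 and 4.35 at D10. Hes5 was under 1 TPM in every unsorted library after D0.

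**Figure D1:**
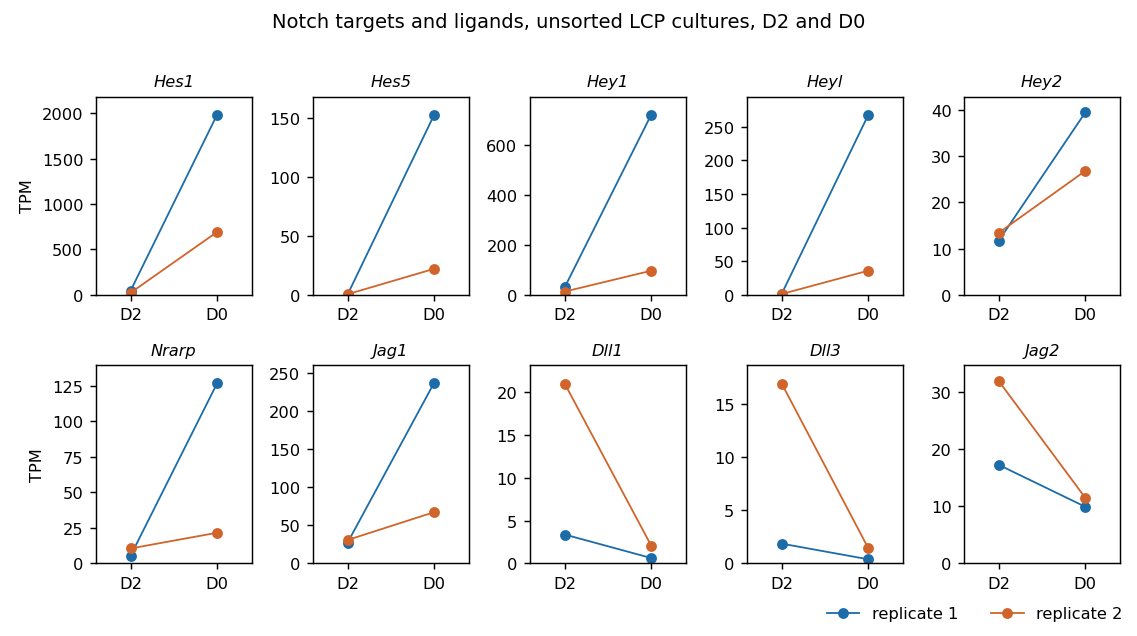
TPM of 6 Notch target genes and 4 Notch ligand genes in the D2 and D0 libraries of the unsorted cultures. Each point is 1 library on a linear axis from 0, and a line joins the D2 and D0 libraries of the same replicate number. All 6 targets lie lower at D2 in both replicates, with Hes1 at 40.1 and 18.9 TPM at D2 and 1982 and 689 TPM at D0.

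RBPJ binds a short core sequence, TGGGAA, and promoters of the Notch targets are shown to let this core be seen next to the start site. The RefSeq promoter table (build GRCm38.p6, 250 bases before to 50 after the start) held 3 of the 6 targets, and 2 of these 3, Hes5 and Hey2, held the core on either strand. Of all 32851 promoters in the table, 25.6% held it. Capitals mark the core, read as TGGGAA on the printed strand or as TTCCCA where it lies on the other strand. The Hes5 window is chr4:154960673-154960972 on the plus strand, and the Hey2 window is chr10:30842734-30843033 on the minus strand, both printed 5′ to 3′ in the direction of the gene.
Hes5: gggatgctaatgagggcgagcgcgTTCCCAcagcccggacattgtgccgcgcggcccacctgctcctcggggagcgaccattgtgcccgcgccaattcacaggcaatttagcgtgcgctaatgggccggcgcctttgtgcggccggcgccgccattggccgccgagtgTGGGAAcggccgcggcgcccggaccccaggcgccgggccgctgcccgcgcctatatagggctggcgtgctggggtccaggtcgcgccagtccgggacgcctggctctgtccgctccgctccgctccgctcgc
Hey2: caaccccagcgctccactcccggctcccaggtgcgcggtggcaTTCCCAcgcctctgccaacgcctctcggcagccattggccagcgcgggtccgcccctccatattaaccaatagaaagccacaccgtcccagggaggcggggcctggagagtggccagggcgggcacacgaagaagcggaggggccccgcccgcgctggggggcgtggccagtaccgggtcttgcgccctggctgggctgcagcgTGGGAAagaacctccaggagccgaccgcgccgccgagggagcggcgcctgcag
Each promoter held 1 core on either strand, on opposite sides of the window. A match describes letters only, and the windows bear on no measured binding.

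Genes upstream in the pathway did not follow the targets down together. Jag1, the ligand of the prosensory region and later of supporting cells, was at 27.4 and 30.8 TPM at D2, against 238 and 67.4 TPM at D0. Dll1, a ligand of nascent hair cells, was at 3.37 and 21.0 TPM at D2, against 0.630 and 2.08 TPM at D0. Dll3, a Delta-family member that acts within the cell, was at 1.86 and 16.9 TPM at D2, against 0.389 and 1.44 TPM at D0. For Jag1 both D2 libraries lay below both D0 libraries, and for Dll1 both lay above, while for Dll3 the ranges were also apart but D2 replicate 2 alone was above 10 TPM. Jag2, the other ligand of nascent hair cells, was at 17.3 and 31.9 TPM at D2, against 9.92 and 11.5 TPM at D0. None of these ligands passed the limma test: the log2 difference was -2.09 for Jag1 (adjusted p = 0.59), 2.13 for Dll1 (adjusted p = 0.242), 1.96 for Dll3 (adjusted p = 0.434) and 1.07 for Jag2 (adjusted p = 0.263). All 4 of these ligands had an unadjusted p under 0.05 by limma. Dll4, a ligand of blood vessels, and Dlk1, a non-canonical ligand, were under 1 TPM in all 4 libraries and were not tested. Dll3 crossed the size of 1 in replicate 1 by a narrow margin and no longer did when libraries were rescaled by median of ratios, which left Dll1 as the 1 ligand shifted upward.

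Receptors and the processing machinery had differences within 1 in at least one pair. Notch1, the main receptor of the developing cochlea, was at 89.4 and 34.7 TPM at D2, against 140.2 and 31.3 TPM at D0, with D2 and D0 overlapping. None of 4 receptors, 14 modulators and 8 genes of gamma-secretase and its partner sheddases passed the test or differed by 1 in both pairs, and 0, 0 and 0 of them had an unadjusted p under 0.05 by limma. Lfng, a sugar transferase that tunes receptor and ligand binding and is itself under Notch control, was at 1.85 and 7.11 TPM at D2, against 26.2 and 7.09 TPM at D0, lower at D2 in replicate 1 and level in replicate 2. Psen2, a catalytic subunit of gamma-secretase, was at 14.0 and 14.1 TPM at D2, against 35.6 and 14.5 TPM at D0, with 1 D0 library apart from the other 3. The median log2 difference was -0.01 for the receptors, 0.03 for the modulators and 0.05 for the gamma-secretase genes.

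Hair cell transcription factors were low at both days, and the D2 libraries differed from each other. Atoh1, the factor used with Hes1 to check the stage, was at 4.86 and 34.6 TPM at D2, against 2.76 and 5.79 TPM at D0. Only D2 replicate 2 stood clear of the D0 libraries, since D2 replicate 1 lay between them. The log2 difference of Atoh1 was 1.52 (SE 0.65, adjusted p = 0.674 by limma). It was 0.64 in replicate 1 and 2.39 in replicate 2. Of the 2 genes that check the stage, Hes1 therefore differed by more than 1 in both pairs and Atoh1 in replicate 2 alone.

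Factors that act with or after Atoh1 had a similar split. Lhx3, a LIM-domain factor of hair cells, was at 3.28 and 29.0 TPM at D2, against 1.59 and 1.93 TPM at D0. Pou4f3, which hair cells need to survive, was at 1.63 and 14.5 TPM at D2, against 0.988 and 2.02 TPM at D0. Gfi1, a repressor that acts with these factors, was at 1.94 and 8.43 TPM at D2, against 0.887 and 0.698 TPM at D0. In all of them D2 replicate 2 was several times above every other library. D2 replicate 1 lay between the D0 libraries for Pou4f3 and above both, at low levels, for Lhx3 and Gfi1. The adjusted p by limma was 0.408 for Lhx3, 0.6 for Pou4f3 and 0.434 for Gfi1. Barhl1, a homeobox factor needed to keep hair cells alive, was at 0.847 and 5.37 TPM at D2, against 0.315 and 0.631 TPM at D0 and did not enter the test. Insm1, a factor of outer hair cell fate, and Nhlh1 were under 1 TPM in all 4 libraries. Ikzf2, a factor of outer hair cells, was at 1.28 and 1.74 TPM at D2, against 1.51 and 1.27 TPM at D0, and Rfx1 and Rfx3, factors of terminal hair cell differentiation, had log2 differences of -0.04 and 0.07, with groups that overlapped.

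Of the 10 hair cell transcription factors, 7 passed the filter on low values and 0 differed by 1 in both pairs. The limma test gave 0 with an adjusted p under 0.05 and 4 with an unadjusted p under 0.05, against 6.94% of all genes tested. In replicate 2, 5 were at least 1 higher at D2, and in replicate 1 none was. Over all genes tested, 6.37% were at least 1 higher in replicate 2 and 3.49% in replicate 1. The difference was larger in replicate 2 for 10 of 10 factors, with medians of 0.32 in replicate 1 and 1.25 in replicate 2. Over all genes tested the medians were -0.07 in replicate 1 and -0.08 in replicate 2. The share of all genes with the larger difference in replicate 2 was not counted, so such counts, here and below, are a description only. The later libraries did not keep this split for Atoh1, which was at 2.76 and 5.79 TPM at D0, 4.86 and 34.6 at D2, 45.8 and 42.7 at D4 and 24.3 and 14.2 at D10. At D4 both replicates of Atoh1 were therefore above both D0 libraries. The other factors with this split at D2 kept replicate 2 the higher at D4. They were at 28.1 and 84.6 TPM for Lhx3, 12.5 and 34.8 for Pou4f3, 18.8 and 56.3 for Gfi1 and 6.38 and 16.2 for Barhl1.

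Early hair cell genes, which come on soon after Atoh1, repeated the pattern. Rbm24, an RNA-binding protein of nascent hair cells, was at 4.98 and 27.6 TPM at D2, against 2.13 and 2.67 TPM at D0. Hes6, a Hes family member made by developing hair cells, was at 65.9 and 160.2 TPM at D2, against 70.6 and 77.8 TPM at D0. Anxa4, an annexin of hair cells, was at 66.9 and 190.2 TPM at D2, against 49.9 and 70.4 TPM at D0. D2 replicate 2 was the highest library for all 3 genes, and D2 replicate 1 was not above the D0 range for Hes6 and Anxa4. None of the 12 genes passed the limma test, which 9 entered (1 had an unadjusted p under 0.05), and the difference was larger in replicate 2 for 12 of 12, with medians of 0.01 in replicate 1 and 1.14 in replicate 2. For Hes6 the sign rested on D2 replicate 2: without that library the log2 difference was -0.041, against 0.47 with it.

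Genes of the hair bundle and its mechanotransduction apparatus were mostly still low. Of 33 listed, 19 had enough signal to be tested, 0 passed the limma test (6 had an unadjusted p under 0.05), and 11 of these 19 were higher and 5 lower in both pairs, against 25.2% and 39.7% of all genes tested. Lhfpl5, a subunit of the mechanotransduction channel, was at 5.92 and 55.6 TPM at D2, against 1.53 and 4.05 TPM at D0. Myo7a, the motor of the bundle, was at 1.14 and 5.33 TPM at D2, against 0.729 and 0.346 TPM at D0. Grxcr1, which shapes stereocilia, was at 1.65 and 11.9 TPM at D2, against 0.752 and 2.10 TPM at D0. Lhfpl5 was the 1 bundle gene with a difference of 1 or more in both pairs, and its groups did not overlap, though its D2 libraries differed several-fold and its adjusted p by limma was 0.408. Adgrv1, a receptor of the ankle links, went against the list, at 0.846 and 2.41 TPM at D2, against 4.01 and 4.59 TPM at D0. The channel genes Tmc1 and Tmc2 and the bundle genes Strc, Loxhd1 and Xirp2 were under 1 TPM in all 4 libraries.

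Of 17 synaptic, channel and calcium-buffer genes, 6 entered the test. In both pairs 2 were higher by 1 or more, against 1.45% of all genes tested. Those 2, Cabp2 and Chrna9, were under 1 TPM in both D0 libraries and entered through D2 alone. The filter therefore fixed their direction, and that count is a description only. None of the 6 passed the limma test (3 had an unadjusted p under 0.05). Cabp2, a calcium sensor of the hair cell synapse, was at 1.67 and 4.73 TPM at D2, against 0 and 0.0421 TPM at D0. Chrna9, a subunit of the efferent acetylcholine receptor, was at 2.28 and 8.20 TPM at D2, against 0.477 and 0.762 TPM at D0. Both had no overlap between D2 and D0 and were below 1 TPM at D0, with Cabp2 listed at 0 in D0 replicate 1, and their adjusted p by limma was 0.782 for Cabp2 and 0.528 for Chrna9. Pvalb, a calcium buffer, was at 6.58 and 60.3 TPM at D2, against 2.82 and 7.02 TPM at D0, close to but short of 1 in replicate 1. Otof, which hair cells need for vesicle release, was at 0.910 and 1.00 TPM at D2, against 0.153 and 0.111 TPM at D0, and Slc17a8, their glutamate transporter, Slc26a5, the outer hair cell motor, and Ocm were under 1 TPM in all 4 libraries.

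**Figure D2:**
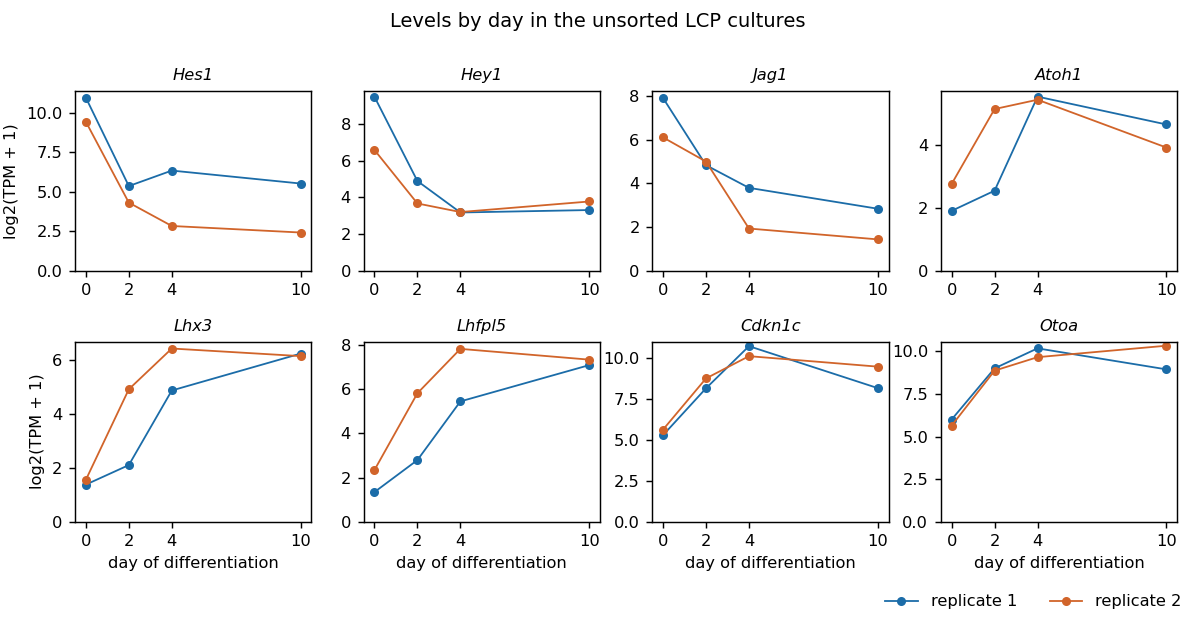
Level in log2(TPM + 1) of 8 genes in the unsorted cultures at D0, D2, D4 and D10, with days to scale on the horizontal axis. Each point is 1 library and a line joins libraries of the same replicate number. Hes1 and Hey1 are lower at D2 than at D0 in both replicates, while Atoh1 is at 4.86 and 34.6 TPM at D2 and 45.8 and 42.7 TPM at D4.

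Prosensory and supporting cell genes moved in both directions. Sox2, the factor that marks prosensory and supporting cells, was at 10.5 and 21.3 TPM at D2, against 89.6 and 35.0 TPM at D0. Gata3, a factor of the whole sensory domain, was at 409.7 and 293 TPM at D2, against 999 and 407 TPM at D0. Emilin2, an extracellular matrix glycoprotein, was at 1.66 and 1.07 TPM at D2, against 11.96 and 9.88 TPM at D0. For Sox2 and Emilin2 the D2 libraries were below both D0 libraries, and for Gata3 D2 replicate 1 slightly exceeded the lower D0 library. Tectb, which builds the tectorial membrane, went the other way, at 247 and 145 TPM at D2, against 59.6 and 58.4 TPM at D0. Sparcl1, a secreted matrix protein and the most abundant of the list at D2, was at 575 and 416 TPM at D2, against 437 and 274 TPM at D0. None of the 22 genes passed the limma test (5 had an unadjusted p under 0.05), 1 was at least 1 lower in both pairs (Emilin2), 1 at least 1 higher (Tectb), and the median log2 difference was -0.14. Fgfr3, a receptor of pillar and Deiters' cells, was under 10 TPM in all 4 libraries and Prox1, a factor of the same cells, under 1 TPM.

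Otoa, which anchors the tectorial membrane to the epithelium and is known from the interdental cells, had the largest mean difference upward among genes with standard names that were at least 1 higher in both pairs and averaged at least 10 TPM at D2. It was at 513 and 467 TPM at D2, against 62.8 and 48.7 TPM at D0. Both D2 libraries were many times above both D0 libraries and close to each other. The log2 difference was 3.12 (SE 0.65), with an adjusted p of 0.138 by limma that did not pass. At D4 it was at 1160 and 809.6 TPM and at D10 at 492 and 1292 TPM. Slc26a4, the anion exchanger pendrin of non-sensory epithelium, was at 15.5 and 22.5 TPM at D2, against 5.82 and 9.17 TPM at D0, without overlap. Gata2, a transcription factor listed with the non-sensory epithelium, was at 7.10 and 7.83 TPM at D2, against 25.7 and 14.0 TPM at D0, also without overlap but lower. Of the 9 markers of other cochlear epithelium, 2 were at least 1 higher in both pairs, Otoa and Slc26a4, against 1.45% of all genes tested. Otx2 and Kcne1, which mark the roof and the stria, were under 1 TPM in all 4 libraries.

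Epithelial genes were higher in both pairs for 8 of 10, against 25.2% of all genes tested, and none passed the limma test (1 had an unadjusted p under 0.05). Epcam, the epithelial adhesion molecule, was at 778 and 693 TPM at D2, against 439.8 and 543 TPM at D0. Krt18, a keratin of simple epithelia, was at 913 and 471 TPM at D2, against 331 and 249 TPM at D0. Cldn3, a tight junction claudin, was at 807 and 341 TPM at D2, against 276 and 182 TPM at D0. D2 was above D0 without overlap in all 3 genes, by less than 2 on the log2 scale. The difference was larger in replicate 1 for 10 of 10 members, opposite to the hair cell lists, with medians of 0.78 in replicate 1 and 0.20 in replicate 2. The share of all genes with the larger difference in replicate 1 was not counted.

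Genes of DNA replication were lower at D2 in every listed case. All 20 S-phase genes were lower in both pairs, against 39.7% of all genes tested, and this count was the same when libraries were rescaled by median of ratios or without mitochondrial genes and genes without a name. Rrm2, a subunit of ribonucleotide reductase, was at 11.6 and 26.8 TPM at D2, against 33.0 and 40.5 TPM at D0. Mcm6, of the replicative helicase, was at 29.0 and 47.0 TPM at D2, against 56.5 and 75.5 TPM at D0. Ccne1, the cyclin that opens S phase, was at 2.75 and 6.93 TPM at D2, against 10.0 and 16.0 TPM at D0. D2 was below D0 without overlap in these 3 genes. None of the 20 passed the limma test (4 had an unadjusted p under 0.05), and Ccne1 was the 1 gene lower by 1 or more in both pairs. The median log2 difference was -0.67, with -0.79 in replicate 1 and -0.50 in replicate 2. Genes of G2 and mitosis were lower in both pairs for 20 of 23 (17 of 23 after rescaling by median of ratios), against the same 39.7%, with a median of -0.41 and 0 that passed (0 with an unadjusted p under 0.05). Mitotic kinase gene Bub1 was at 9.10 and 12.1 TPM at D2, against 20.6 and 17.5 TPM at D0.

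Among inhibitors of the cell cycle, Cdkn1c stood apart. This gene, which encodes the CDK inhibitor p57, was at 287 and 437 TPM at D2, against 38.3 and 48.8 TPM at D0. Both D2 libraries were several times above both D0 libraries. The log2 difference was 3.01 (SE 0.50, adjusted p = 0.0621 by limma), which did not pass, though it did with a pseudocount of 5 (adjusted p = 0.0416). Gm44732, a transcript annotated over Cdkn1c on the opposite strand, did pass: it was at 44.2 and 62.7 TPM at D2, against 4.86 and 4.61 TPM at D0 with a log2 difference of 3.23 (adjusted p = 0.0424 by limma). The library kits do not mark strand, so reads of Cdkn1c and of Gm44732 cannot be told apart, and without any 1 of the 4 libraries the adjusted p of Gm44732 was between 0.156 and 0.421. Cdkn1a, which encodes the inhibitor p21, was at 356 and 257 TPM at D2, against 155 and 181 TPM at D0. Ccnd2, a D-type cyclin, was at 14.8 and 149 TPM at D2, against 61.7 and 292 TPM at D0, lower in both pairs but with a wide gap between replicates on each day.

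Interferon response genes were the other group lower at D2 in nearly every member. Of 25 listed genes, which cells induce after interferon reaches its receptor, 23 entered the test and 22 of these were lower in both pairs, against 39.7% of all genes tested. Ube2l6, the enzyme that conjugates the ubiquitin-like protein ISG15, was at 6.21 and 4.04 TPM at D2, against 32.8 and 44.9 TPM at D0. It fell, with both D2 libraries far below both D0 libraries: the log2 difference was -2.71 (SE 0.30, adjusted p = 0.00844 by limma). The call held without the block, with an adjusted p of 0.0336, and without D0 replicate 1, with 0.00785. It was lost without D2 replicate 1 (adjusted p = 0.0783), D2 replicate 2 (adjusted p = 0.156) or D0 replicate 2 (adjusted p = 0.0893), and over all alternatives the adjusted p by limma ran from 0.00346 to 0.236.

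The other members did not pass and are given by level. Isg15, the ubiquitin-like protein itself, was at 4.74 and 0.687 TPM at D2, against 39.6 and 8.69 TPM at D0. Usp18, the protease that removes it, was at 0.585 and 0.0631 TPM at D2, against 4.34 and 2.83 TPM at D0. Irf7, a transcription factor that amplifies the response, was at 1.09 and 0.678 TPM at D2, against 7.12 and 4.20 TPM at D0. Each of these had D2 below D0 without overlap. The annotation of Irf7 overlaps Phrf1 on the opposite strand, at 60.0 and 30.8 TPM at D2 and 61.1 and 33.8 TPM at D0. Oas1a, a sensor of double-stranded RNA with close paralogs that can share its reads, was at 1.14 and 0.802 TPM at D2, against 4.54 and 5.78 TPM at D0. Psmb9, an immunoproteasome subunit whose annotation overlaps Tap1 on the other strand, was at 3.18 and 1.17 TPM at D2, against 9.90 and 10.4 TPM at D0. In these too the groups did not overlap. The adjusted p by limma was 0.265 for Isg15, 0.0805 for Usp18 and 0.269 for Irf7.

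Counted over the list, 9 of 25 genes were at least 1 lower in both pairs (8 under either rescaling), against 2.57% of all genes tested. Of the 23 tested, 15 had an unadjusted p under 0.05 by limma, against 6.94% of all genes tested. This list too was chosen with earlier results of these data known, so its counts are a description. The median log2 difference of the list was -0.99, with -0.86 in replicate 1 and -1.20 in replicate 2. The most abundant members were antigen presentation genes. B2m, the light chain of MHC class I, was at 206 and 192 TPM at D2, against 247 and 310.0 TPM at D0. H2-D1, a heavy chain with near-identical paralogs, was at 126 and 135 TPM at D2, against 246 and 346 TPM at D0. H2-D1 and B2m were lower at D2 without overlap. Of 10 immune cell markers, 1 had enough signal to be tested, the leukocyte and macrophage genes Ptprc, Csf1r and Lyz2 were at or below 0.0143 TPM in all 4 libraries, and the summed level of the 10 was 0.917 and 1.53 TPM at D2, against 1.91 and 0.279 TPM at D0.

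**Figure D3:**
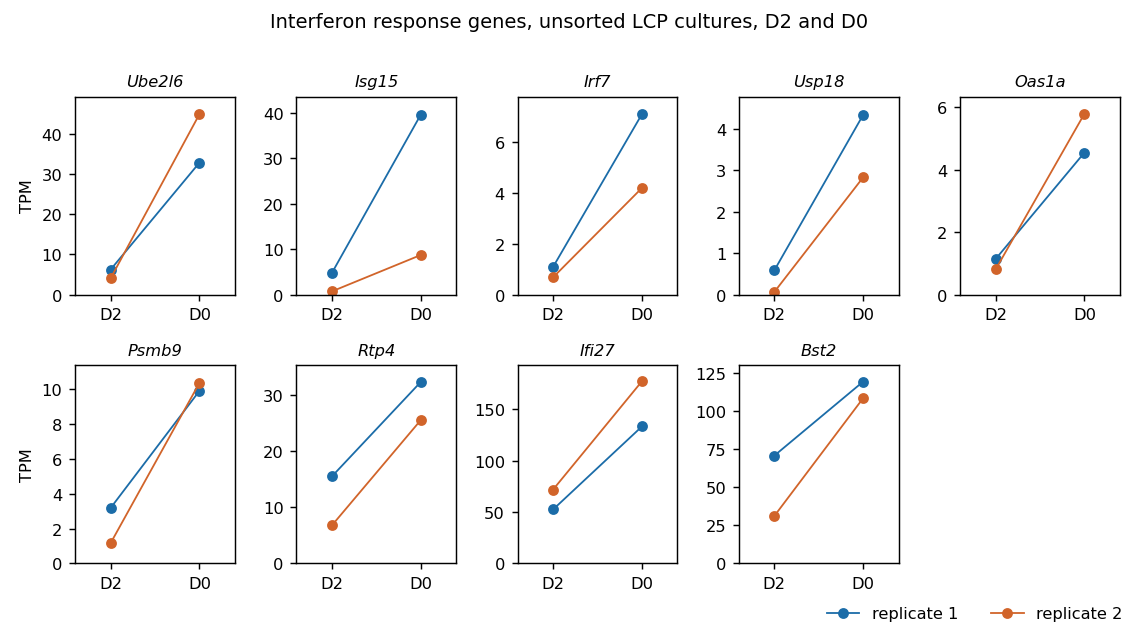
TPM of 9 interferon response genes in the D2 and D0 libraries of the unsorted cultures. Each point is 1 library on a linear axis from 0, and a line joins the D2 and D0 libraries of the same replicate number. Every line is lower at D2, as for Ube2l6 with 6.21 and 4.04 TPM at D2 and 32.8 and 44.9 TPM at D0. Apart from Bst2, the genes shown are members at least 1 lower in both pairs, so this does not stand for the whole list. Ifit3, a member not shown, was at 1.68 and 0.195 TPM at D2, against 1.61 and 0.675 TPM at D0.

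Promoters of 3 of these genes are printed because the interferon-stimulated response element, the site of STAT and IRF factors, lies close to the start of many such genes. Its core was searched on both strands as GAAA, any 2 bases and GAAA again. It was found in 8 of the 20 members present in the RefSeq promoter table (B2m, Bst2, Ifit1, Ifit3, Isg15, Oas1a, Rsad2 and Stat2), and in 3.44% of all 32851 promoters. Capitals mark the core, and overlapping matches run together. The windows, on GRCm38.p6, are chr4:156200769-156201068 on the minus strand for Isg15, chr5:120907476-120907775 on the minus strand for Oas1a and chr2:84798578-84798877 on the plus strand for Ube2l6.
Isg15: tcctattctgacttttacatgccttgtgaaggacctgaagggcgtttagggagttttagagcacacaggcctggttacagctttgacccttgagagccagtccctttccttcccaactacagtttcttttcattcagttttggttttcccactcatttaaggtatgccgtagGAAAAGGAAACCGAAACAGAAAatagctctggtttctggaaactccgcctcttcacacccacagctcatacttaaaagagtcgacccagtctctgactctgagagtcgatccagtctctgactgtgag
Oas1a: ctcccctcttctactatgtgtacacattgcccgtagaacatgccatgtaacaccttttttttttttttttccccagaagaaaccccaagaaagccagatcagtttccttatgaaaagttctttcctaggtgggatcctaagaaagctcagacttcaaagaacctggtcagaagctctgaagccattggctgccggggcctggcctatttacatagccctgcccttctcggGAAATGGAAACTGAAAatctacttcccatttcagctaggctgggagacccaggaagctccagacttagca
Ube2l6: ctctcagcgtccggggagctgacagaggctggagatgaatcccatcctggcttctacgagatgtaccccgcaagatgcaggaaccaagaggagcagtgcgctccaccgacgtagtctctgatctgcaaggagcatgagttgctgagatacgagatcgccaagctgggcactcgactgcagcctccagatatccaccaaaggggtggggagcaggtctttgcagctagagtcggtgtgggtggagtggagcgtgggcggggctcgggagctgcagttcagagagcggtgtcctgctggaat
Isg15 held 3 overlapping matches and Oas1a 2, all on the printed strand. These letters are not in the Ube2l6 window, although Ube2l6 was the member that passed the test, and nothing follows from that about the factors.

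Outside these lists, 2 genes with standard names passed the test as higher at D2. Neither passed when the block was fitted on the 8 unsorted libraries or on these 4 alone. Cspg5, a proteoglycan known from the nervous system, was at 75.6 and 109.8 TPM at D2, against 17.3 and 28.5 TPM at D0 with a log2 difference of 1.99 (SE 0.27, adjusted p = 0.0268 by limma). Hsd3b7, an enzyme of bile acid synthesis from oxysterols, was at 23.2 and 25.2 TPM at D2, against 3.91 and 5.29 TPM at D0 with a log2 difference of 2.18 (SE 0.33, adjusted p = 0.0424 by limma). In both genes each D2 library was well above each D0 library. They were 2 of the 6 genes (0.039% of those tested) that were higher.

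The genes that fell included secreted factors and a receptor. Ntf3, the neurotrophin that supports cochlear neurons and is made by supporting cells and hair cells, was at 2.21 and 3.02 TPM at D2, against 28.0 and 20.3 TPM at D0 with a log2 difference of -2.79 (SE 0.43, adjusted p = 0.0424 by limma). Gpx6, a glutathione peroxidase, was at 0.199 and 0.910 TPM at D2, against 8.14 and 20.1 TPM at D0 with a log2 difference of -3.20 (adjusted p = 0.025 by limma). Htr3a, a serotonin-gated channel, was at 1.80 and 0.883 TPM at D2, against 8.64 and 5.52 TPM at D0. Each of them had both D2 libraries well below both D0 libraries. Nid2, a basement membrane linker, was at 2.82 and 1.56 TPM at D2, against 10.99 and 7.36 TPM at D0. Tmem255a, a membrane protein, was at 1.43 and 0.634 TPM at D2, against 8.99 and 9.30 TPM at D0. The lowest were Timd2, a ferritin receptor, at 0.648 and 0.5004 TPM at D2, against 3.99 and 3.39 TPM at D0, and Nccrp1, an F-box protein, at 0.0838 and 0.121 TPM at D2, against 1.96 and 3.64 TPM at D0. Gpx6, Timd2 and Nccrp1 were under 1 TPM in both D2 libraries and entered the test through D0 alone. The filter therefore fixed the direction of Gpx6, Timd2 and Nccrp1. The adjusted p by limma was 0.0424 for Htr3a, 0.0426 for Nid2, 0.0442 for Tmem255a, 0.0424 for Timd2 and 0.0425 for Nccrp1. The annotation of Nid2 overlaps Rtraf on the opposite strand, at 68.5 and 73.9 TPM at D2 and 95.6 and 110 TPM at D0. That of Tmem255a overlaps Zbtb33 on the opposite strand, and that of Nccrp1 overlaps Samd4b on the same strand. Reads from the shared stretches cannot be told apart.

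These calls, those of Hes1 and Ube2l6 among them, depended on the fit and on single libraries. With the replicate block fitted on the 8 unsorted libraries or on these 4 alone, limma called 0 genes at an adjusted p of 0.05 (1446 and 2565 had an unadjusted p under 0.05), and with a block for each kind of sample it called 1 higher and 6 lower. Of 16 alternatives, Cspg5 passed in 7 and Hsd3b7 in 3. Of the 11 called genes with standard names, 8 were not called without any 1 of the 4 libraries, and 3 (Ube2l6, Gpx6 and Nccrp1) were called without D0 replicate 1 and lost without each of the others. The count of called genes was 4 without D2 replicate 1, 2 without D2 replicate 2, 9 without D0 replicate 1 and 2 without D0 replicate 2. The 9 other called genes were pseudogenes, predicted genes and microRNA genes: Gm25506, Gm23206, Mir8105, Gm11334, Gm23692, Gm44732, Cbx3-ps7, Mir6907 and Mir6944. Apart from Gm44732 these were listed at or near 0 in both libraries of one day, where an exact 0 adds no spread to the test, and Mir6907 and Mir6944 lie inside the transcribed genes Rrp1 and Dbn1.

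Genes with large differences in both pairs that did not pass include several with D2 replicates far apart. Scx, the tendon factor scleraxis, was at 23.5 and 41.2 TPM at D2, against 1.53 and 4.87 TPM at D0. H19, an imprinted non-coding RNA, was at 10.1 and 21.4 TPM at D2, against 0.564 and 3.97 TPM at D0. Smoc2, a matrix protein, was at 6.49 and 50.7 TPM at D2, against 0.794 and 3.20 TPM at D0. All were low at D0 and without overlap between days, with D2 replicate 2 the highest library. The other genes that the naming rule took as highest are Grp, Svopl, Tmem255b, Cldn22, Bricd5 and Ptgds, besides Otoa, Cdkn1c and Lhfpl5. Their log2 differences ran from 2.19 for Ptgds to 2.38 for Grp, D2 replicate 2 was the highest of the 4 libraries for all 6, and none had an adjusted p by limma under 0.164, the value of Cldn22. Scx, Cldn22, Tmem255b and Bricd5 overlap Bop1, Wwc2, Gas6 and Mlst8 on the opposite strand, whose reads cannot be told apart from theirs. Tmem255b had 7.55 and 72.4 TPM at D2 and 2.68 and 6.64 TPM at D0, and its neighbour Gas6 had 6.58 and 5.52 TPM at D2 and 22.8 and 24.1 TPM at D0.

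Among the lowest, Tnfaip2, a gene first found as induced by tumour necrosis factor, was at 3.45 and 14.2 TPM at D2, against 58.2 and 100.5 TPM at D0. Slitrk6, a membrane protein that cochlear innervation needs, was at 0.792 and 2.55 TPM at D2, against 34.0 and 15.1 TPM at D0. Igfbpl1, a secreted relative of IGF-binding proteins, was at 0.198 and 0.464 TPM at D2, against 10.9 and 9.19 TPM at D0. In these 3 genes both D2 libraries were below both D0 libraries, and the adjusted p by limma was 0.178 for Tnfaip2, 0.184 for Slitrk6 and 0.134 for Igfbpl1. Enpp2, the enzyme autotaxin, was at 0.921 and 6.08 TPM at D2, against 13.1 and 39.5 TPM at D0.

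The pairs moved together only loosely across genes. Over the 15394 genes the correlation between the difference in replicate 1 and that in replicate 2 was 0.273 (Pearson, across genes of libraries that share a day, which are not independent replicates), the SD of the differences was 0.670 in replicate 1 and 0.829 in replicate 2, and 226 genes moved by at least 1 in opposite directions. In all, 618 genes (4.01%) differed by at least 1 in the same direction in both pairs. At an unadjusted p under 0.05 by limma there were 1069 genes, 6.94% of those tested. With 2 libraries against 2, an exact permutation test of one gene cannot give a two-sided p below 0.3333, so no such test was run.

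**Figure D4:**
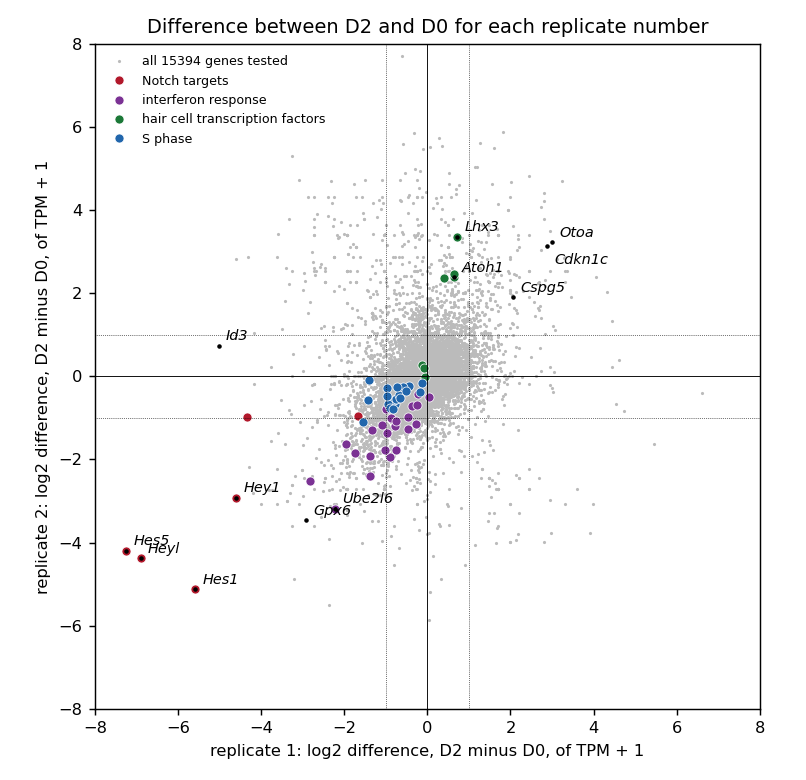
Difference in log2(TPM + 1), D2 minus D0, in replicate 1 (horizontal) and replicate 2 (vertical) for all 15394 genes tested. Grey points are single genes, coloured points are members of 4 lists, dotted lines mark a difference of 1, and black points are named genes. Notch targets and interferon genes lie at the lower left, hair cell transcription factors above 0 mainly on the vertical axis, and Id3 at the far left with a difference of -5.03 in replicate 1 and 0.74 in replicate 2.

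Genes under BMP control were among those that split by replicate. Id3, an inhibitor of DNA binding and a BMP target, was at 12.6 and 148 TPM at D2, against 443 and 88.2 TPM at D0. Id1, of the same family, was at 11.8 and 78.1 TPM at D2, against 119 and 53.7 TPM at D0. Id2 was at 86.0 and 254 TPM at D2, against 380.2 and 275 TPM at D0. In replicate 1 the D2 libraries were far lower, and in replicate 2 Id3 and Id1 were slightly higher at D2. None passed the limma test, and for Id1 the mean log2 difference of -1.35 became 0.26 without D2 replicate 1. The other feedback genes of the list, Smad6, Smad7 and Bambi, had differences under 1 in both pairs. Inhba, a subunit of activin, was at 17.8 and 7.54 TPM at D2, against 37.3 and 21.3 TPM at D0, lower by just over 1 in both pairs, though not after rescaling by median of ratios.

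Wnt-responsive genes did not pass the test. Lgr5, the receptor that gives the progenitors their name, was at 58.9 and 35.4 TPM at D2, against 112 and 66.7 TPM at D0, with both D2 libraries below both D0 libraries. Lgr6, its relative, was at 48.4 and 45.0 TPM at D2, against 72.3 and 90.3 TPM at D0. Notum and Wif1, secreted Wnt antagonists, were at 0.346 and 0.575 TPM at D2 and 1.74 and 2.98 TPM at D0 for Notum and 2.57 and 2.17 TPM at D2 and 6.58 and 5.52 TPM at D0 for Wif1. These 2 antagonists were the members lower by 1 or more in both pairs, and neither was after rescaling by median of ratios. Of the 15 genes tested 8 were lower in both pairs, against 39.7% of all genes tested, 0 passed the limma test (0 had an unadjusted p under 0.05) and the median log2 difference over the 17 listed was -0.37.

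Of 17 feedback genes of FGF and EGF receptors, 9 were higher and 2 lower in both pairs, against 25.2% and 39.7% of all genes tested, and 0 passed the limma test (1 had an unadjusted p under 0.05). Dusp5, a phosphatase of ERK, was at 111 and 76.5 TPM at D2, against 35.6 and 16.2 TPM at D0. Spry4, an inhibitor of receptor signalling, was at 5.20 and 7.60 TPM at D2, against 26.5 and 13.6 TPM at D0. Etv5, an ETS factor downstream of FGF, was at 556 and 191 TPM at D2, against 274 and 169.9 TPM at D0. Dusp5 was higher and Spry4 lower at D2 without overlap, and neither passed the limma test, with adjusted p of 0.758 for Dusp5 and 0.31 for Spry4. The median over the 17 genes was 0.29.

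**Figure D5:**
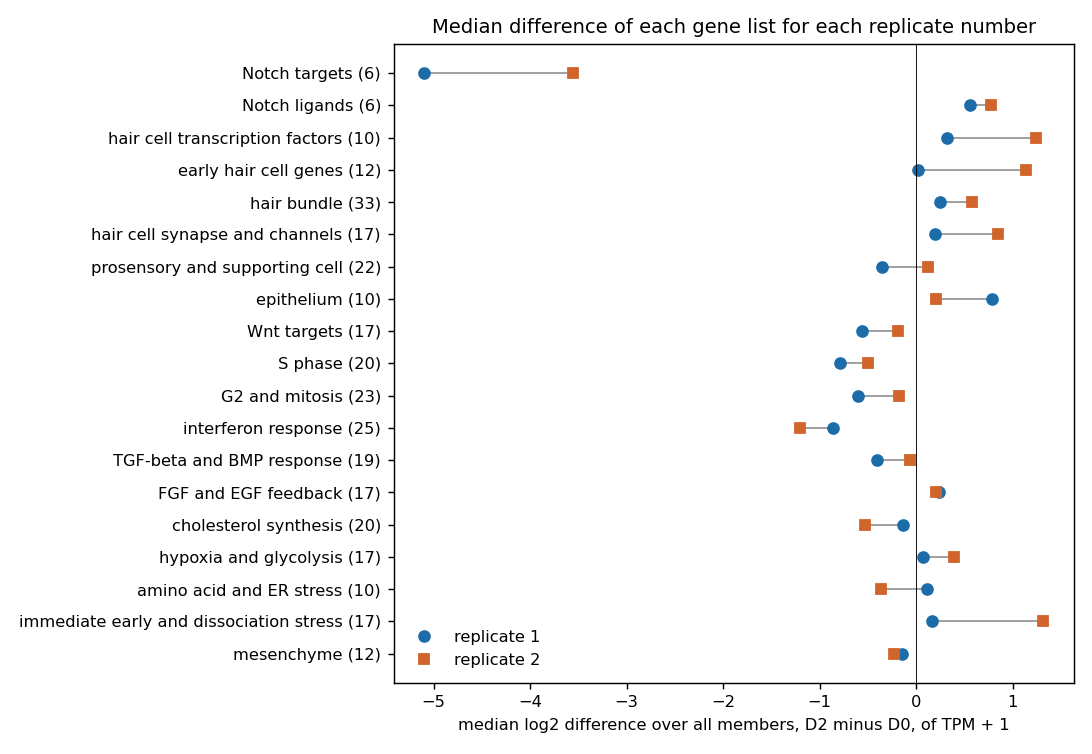
Median difference in log2(TPM + 1), D2 minus D0, over all members of each gene list (number of members in brackets), in replicate 1 (circles) and replicate 2 (squares). Notch targets, S-phase genes and interferon genes lie below 0 in both replicates, and hair cell transcription factors are at 0.32 in replicate 1 and 1.25 in replicate 2.

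Stress genes differed between the replicates as well. The summed level of 10 amino acid and ER stress genes was 4960 and 1665 TPM at D2, against 5270 and 1622 TPM at D0, so replicate 1 was about 3 times above replicate 2 on both days. Immediate early and dissociation stress genes had a median difference of 0.16 in replicate 1 and 1.32 in replicate 2, the split that the hair cell genes also showed. Fos, the prototype of these genes, was at 91.4 and 1258 TPM at D2, against 101 and 182 TPM at D0, and its mean difference of 1.32 became -0.32 without D2 replicate 2. The part of this difference in the hair cell values of D2 replicate 2 was not tested. Nr4a1, an orphan nuclear receptor and the 1 gene of the list at least 1 higher in both pairs, was at 369 and 169 TPM at D2, against 147 and 56.7 TPM at D0.

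Markers of mesenchyme summed to 780.5 and 1271 TPM at D2, against 1016 and 1537 TPM at D0. Almost all of this was Dcn at 525 and 494 TPM at D2 and 737 and 803 TPM at D0 and Lum at 251 and 772 TPM at D2 and 271 and 719 TPM at D0, while 7 of the other 10 markers, among them Col1a2, Col3a1, Pou3f4 and Pdgfra, were under 2 TPM and Twist2 was at 0 in all 4 libraries. Col1a1, a fibrillar collagen, was at 2.46 and 1.33 TPM at D2, against 5.19 and 3.49 TPM at D0 (unadjusted p = 0.0235 by limma), and Twist1, a mesenchymal transcription factor, was at 1.07 and 1.87 TPM at D2, against 1.41 and 5.41 TPM at D0. Lum had a mean difference near 0, which was 0.79 without D2 replicate 1. Erythroid markers summed to 0.210 and 0.355 TPM at D2, against 1.18 and 0.708 TPM at D0, melanocyte markers to 1.21 and 0.985 TPM at D2, against 1.33 and 1.49 TPM at D0, endothelial markers to 4.83 and 2.73 TPM at D2, against 7.44 and 10.4 TPM at D0 and glial markers to 101 and 45.3 TPM at D2, against 46.0 and 41.2 TPM at D0. In the 4 libraries, 14540 to 15160 genes reached 1 TPM, with 4.27 to 8.10% of the TPM in mitochondrial genes.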

How the data were processed

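RNA from unsorted LCP cultures at D2 and D0 was measured in 2 libraries a day. Per the labels' protocols, cDNA was amplified with a SMARTer V4 kit, made into libraries with a ThruPLEX kit that does not mark strand, and read from one end over 75 bp. A statement in the same protocols that each sample comes from the ears of 1 pup describes dissected epithelia, and whether it covers the cultures is not stated. The authors deposited a TPM for each gene in each library. Per the submitters' processing notes, which list the mm10 build and the tools FastQC, STAR, Salmon and DESeq2, no version or role is recorded. TPM keeps no depth, so counting error is unknown and no intervals are given, and very short genes can reach 1 TPM from few reads.

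Groups and replicate numbers come from the sample titles. After a log2(TPM + 1) transform, genes reaching 1 TPM in 2 or more of the 4 libraries were retained. The test was limma 3.58.1, run in R 4.3.3 (moderated with a trend, Benjamini-Hochberg adjustment over the 15394 genes, threshold 0.05). The fit held all 18 libraries, with a mean per group and the replicate number as a block, and 8 residual and 2.99 prior degrees of freedom, so D2 and D0 are taken to vary like the other groups. The labels give same-numbered D2 and D0 libraries the same extraction and sequencing dates, and their deviations from the group means correlated at 0.548 across genes. Same-numbered libraries of the other groups do not all share these dates, yet a single block effect was fitted to all groups. For replicate 1 of D2 and D0 the labelled extraction date falls after the sequencing date. The fit was also run on simulated data with known changes, drawn without a replicate effect and with the same spread in every group. That run could not test how the calls depend on these assumptions.

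The members and gene lists were chosen with earlier results of these data known. Named are Hes1 and Atoh1, the genes past the threshold, the 12 highest and 12 lowest mean differences among genes shifted by at least 1 in both pairs and averaging at least 10 TPM in the higher group, up to 4 members of each list, and all Notch targets, Notch ligands and hair cell transcription factors. Ribosomal protein genes, unnamed genes, pseudogenes and microRNA genes were left out of the rules on threshold and on size. Any other gene given, such as Lfng, Psen2, Hes6, Grxcr1, Id2, Slc26a4 and the list members named for their function, was chosen after its values were seen. A few genes that these rules name are not reported here. Alternatives changed the block, the libraries in the fit, the moderation, the pseudocount, the filter and the scaling, and left out each library. Gene names and overlaps are from GENCODE M21. The tables were written in Python 3.11.15 with pandas 2.3.3 and numpy 2.4.6.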

Additional observations from a re-analysis of the deposited data

How the results depend on the processing

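The count of genes called between D2 and D0, 20 with the replicate block (6 higher and 14 lower), depended on most settings. It was 10 without the block that pairs the replicates (3 and 7), 7 with a block for each kind of sample (1 and 6), 0 in a fit of the 8 unsorted libraries and 0 in a fit of the 4 libraries alone, where limma gave 1446 and 2565 genes an unadjusted p under 0.05. Leaving out 1 library gave 2 to 9 calls, with 1 to 3 higher and 1 to 7 lower. Pseudocounts of 0.1 and 5 gave 3 calls (0 higher and 3 lower) and 37 calls (6 and 31). A filter of 5 TPM gave 4 (1 and 3), a filter of 1 TPM in 2 of 18 libraries 12 (3 and 9), no filter 26 (4 and 22), and median-of-ratios scaling 7 (2 and 5). Robust moderation and removal of mitochondrial and unnamed genes gave 20 and 19.

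Genes at least 1 apart in both pairs numbered 223 higher and 395 lower. With a pseudocount of 0.1 these were 322 and 650, with 5 they were 62 and 92, with a filter of 5 TPM 120 and 220, at 1.5-fold 526 and 1093, and at 4-fold 38 and 57. The cause of these changes was not tested.

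Of the single genes named, 8 changed sign without 1 library, none of them called. With each library left out, the log2 difference ran from -0.041 to 0.97 for Hes6 and from -0.32 to 2.95 for Fos, lowest without D2 replicate 2, and from -2.96 to 0.26 for Id1 and from -0.80 to 0.79 for Lum, highest without D2 replicate 1. It ran from -0.88 to 0.38 for Notch1, -0.15 to 0.28 for Ikzf2, -0.39 to 0.31 for Rfx1 and -0.17 to 0.30 for Rfx3. A pseudocount of 5 called 3 named genes that no other setting called: Cdkn1c, Tnfaip2 and Usp18. The call of Hes1 had the same direction in all 16 alternatives and passed in 8. The unknown depth limits what can be said of genes near 1 TPM, and 2 libraries a day limit every test.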

Other observations

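Of 19 cholesterol synthesis genes tested in the unsorted cultures, 16 were lower at D2 in both pairs (14 after rescaling by median of ratios), against 39.7% of all genes tested, with medians over the 20 listed of -0.14 in replicate 1 and -0.53 in replicate 2, and 0 passed the limma test at an adjusted p of 0.05 (0 had an unadjusted p under 0.05). Their summed level was 3071 and 971 TPM at D2, against 3524 and 1555 TPM at D0, so replicate 1 was the higher on both days. Among hypoxia and glycolysis genes, Car9, a carbonic anhydrase induced by low oxygen, was at 759 and 440.1 TPM at D2, against 443 and 211 TPM at D0, and the median of the 17 genes was 0.26. Among 16 glutathione and antioxidant genes, Gpx2, a glutathione peroxidase of epithelia, was at 146 and 220.5 TPM at D2, against 62.1 and 51.8 TPM at D0, opposite to Gpx6.

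Of 20 chromatin regulators, 8 were higher and 8 lower in both pairs, against 25.2% and 39.7% of all genes tested, and the median was 0.09. In the progenitor list, Igf2bp1, an RNA-binding protein of fetal tissue, was at 4.72 and 2.92 TPM at D2, against 8.50 and 10.99 TPM at D0, and Lin28a and Lin28b, which hold back let-7 microRNAs, were under 1 TPM in all 4 libraries. Of 10 neuronal markers, Map2 made up most of the summed level of 71.9 and 62.4 TPM at D2, against 90.5 and 42.1 TPM at D0, and Tubb3 and Gap43 were under 1 TPM. None of these 3 lists had a member that passed the limma test, and 1, 2 and 0 of their members had an unadjusted p under 0.05.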
